A study of Mus musculus with 10 samples.

Results

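The 31 genes described here encode the enzymes that build cholesterol, the SREBP and LXR proteins that set its level, and proteins that move, esterify or break it down. They were chosen by gene name from the 24391 names in the count tables, and the list itself uses no measured value. RNA-seq of the bilateral whole hippocampus was available for 10 male mice aged 10 to 14 weeks, with 1 library per mouse, of the strain that the methods of the study spell C56BL/6J. In the SAH mice (subarachnoid hemorrhage, n = 4) an intravascular filament perforated the circle of Willis, the arterial ring under the brain, and tissue was taken 4 days later. Sham mice (n = 3) had the same surgery without perforation, and Naive mice (n = 3) had none. Sham and Naive mice together formed the control group (n = 6). The model bleeds at the base of the brain and the hippocampus was taken away from that site as a mixture of all its cells, so each value is an average over cell types. SAH mice were kept only if cortical blood flow fell sharply at perforation.

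Brain cholesterol is made locally, because the blood-brain barrier keeps plasma cholesterol out, and most of the adult pool lies in myelin. Synthesis runs from acetyl-CoA through mevalonate and farnesyl diphosphate to squalene, and from there through lanosterol to cholesterol. When sterols are low, SCAP escorts SREBP-2 from the endoplasmic reticulum to be cleaved, and the released factor switches on the synthesis genes, while INSIG proteins hold the complex back. When sterols are high, oxysterols activate the LXR receptors, whose targets include the efflux pumps ABCA1 and ABCG1. Neurons dispose of cholesterol mainly through CYP46A1, which makes an oxysterol that can leave the brain.

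The sequences just upstream of 4 genes are shown here because the genes recur in the results below or, in the case of Hmgcs1, could not be measured. Each is the 250 bases before the annotated start in RefSeq (GRCm38.p6), written 5' to 3' on the strand of the gene. Capitals mark a match to TCACNCCAC, a form of the sterol regulatory element, or to CCAAT, the site of the NF-Y factor that works beside SREBP. A CCAAT on the other strand reads ATTGG. The searches covered both strands, and no matches overlapped in these 4 sequences. They lie at chr13:119690101-119690350, plus strand (Hmgcs1, HMG-CoA synthase), chr8:64733579-64733828, minus strand (Msmo1, methylsterol monooxygenase), chr5:4104698-4104947, minus strand (Cyp51, lanosterol demethylase) and chr4:53159896-53160145, minus strand (Abca1, cholesterol efflux pump).
Hmgcs1: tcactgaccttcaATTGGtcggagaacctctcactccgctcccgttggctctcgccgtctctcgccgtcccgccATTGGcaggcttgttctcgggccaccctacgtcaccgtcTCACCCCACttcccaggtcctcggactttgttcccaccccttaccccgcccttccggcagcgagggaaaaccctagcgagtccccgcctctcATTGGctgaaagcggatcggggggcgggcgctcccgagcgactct
Msmo1: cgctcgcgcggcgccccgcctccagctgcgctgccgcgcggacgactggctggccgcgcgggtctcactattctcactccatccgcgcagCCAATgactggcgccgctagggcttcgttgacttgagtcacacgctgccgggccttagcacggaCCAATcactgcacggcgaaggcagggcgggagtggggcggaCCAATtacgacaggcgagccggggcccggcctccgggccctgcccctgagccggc
Cyp51: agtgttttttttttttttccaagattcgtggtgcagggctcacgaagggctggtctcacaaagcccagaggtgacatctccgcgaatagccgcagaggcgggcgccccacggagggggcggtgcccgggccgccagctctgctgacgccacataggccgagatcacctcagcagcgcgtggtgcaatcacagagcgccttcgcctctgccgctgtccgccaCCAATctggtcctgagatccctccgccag
Abca1: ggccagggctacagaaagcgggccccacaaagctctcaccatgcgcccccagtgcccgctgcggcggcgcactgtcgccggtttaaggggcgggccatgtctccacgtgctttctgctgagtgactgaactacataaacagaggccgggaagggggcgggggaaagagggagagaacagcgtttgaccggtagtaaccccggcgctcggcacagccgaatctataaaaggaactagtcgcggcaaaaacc

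Of the 31 genes, 26 were in the RefSeq promoter table, and Fdps, Fdft1, Sqle, Stard4 and Abcg1 were not. CCAAT occurred in the 250 bases of 21 of the 26 genes (80.8%), against 10133 of all 27025 genes in the table (37.5%). Among synthesis enzymes it was found in 14 of 15, with Acat2 as the exception. The other genes without it were Abca1, Nr1h2 and Nr1h3 of the LXR group and Scap. TCACNCCAC was found in 1 of the 26, Hmgcs1, and in 1.22% of all genes. Of the 4 sequences shown, Msmo1 and Cyp51 held only CCAAT and Abca1 held neither motif. These are letter matches in short windows and were not tested as binding sites.

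Hmgcs1 (HMG-CoA synthase), an early enzyme of the mevalonate pathway and the gene with the letter match to TCACNCCAC above, had 0 counts in all 10 mice. In the mm9 annotation of the count tables it lies on chr13_random and is listed there in 2 copies, shifted by 193910 bases. Each copy has 11 exons, and when both were read from mm9 sequence the copies were identical at all 3577 exon bases, with 0 differences. Exon 6 is shown as the example because the same letters stand at chr13_random:120087-120252 and at chr13_random:313997-314162 (minus strand, 166 bases).
Hmgcs1 exon 6: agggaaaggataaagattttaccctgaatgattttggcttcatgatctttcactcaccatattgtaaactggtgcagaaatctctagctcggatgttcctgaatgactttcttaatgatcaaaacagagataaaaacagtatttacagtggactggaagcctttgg

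Only read pairs aligned to a single place were counted, so a pair from these exons has no single place to be assigned to. The count of 0 is therefore no measure of Hmgcs1 expression, and the gene entered no test. The other 30 genes passed the filter on low counts. Exons of Tm7sf2 overlap those of Vps51 on the same strand, where pairs were left out, and Acat2 has a close relative, Acat3, at 2.73 to 4.08 CPM, with which similar reads could be exchanged or lost. Fdft1, Lss and Srebf1 overlap other genes on the opposite strand, which the strand-specific counting keeps apart.

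Between 19743388 and 27254655 counts per mouse were available, so that Nr1h3, the lowest of the 30, still had 46 to 86 counts and Srebf2 3623 to 5975. Levels are given as CPM, which are counts divided by the TMM-adjusted library size, and levels of different genes are compared as CPM per kilobase of exon. On the latter scale, Cyp46a1 had the highest control level at 68.6, followed by Msmo1 at 52.6 and Srebf2 at 47.1. Sc5d (27.6) and Sqle (25.2) followed among the enzymes, and Idi1 (2.39) and Nr1h3 (1.20) were lowest. Neuronal and hippocampal neuron markers were present in every library (Neurod6 at 244.5 CPM or more, Prox1 at 48.5 CPM or more). SAH mouse 3 stood apart from the others, with the lowest CPM of the 10 mice in 26.3% of all genes tested and the highest in 24.8%, and values without it are given for several genes.

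The first question was whether these genes differed between SAH and control mice. At an adjusted p under 0.10 in edgeR's quasi-likelihood test, 0 of the 30 tested genes were called, whereas 4.68% of all 14993 genes tested were. At an unadjusted p under 0.05 there were 5 of 30 (Dhcr7, Abca1, Srebf1, Cyp46a1 and Cyp51), beside 17.0% of all genes. DESeq2 called 2 of the 30 at an adjusted p under 0.10, Dhcr7 lower and Srebf1 higher, beside 6.87% of all genes. Without SAH mouse 3, edgeR called 1 of the 30, Abca1, beside 3.77% of all genes, and without SAH mouse 2 it called 3, Dhcr7, Abca1 and Cyp46a1, beside 7.25% of all genes. The median log2 fold change of the 30 was -0.035 (all genes, -0.0024), with 12 above 0 and 18 below. Single log2 fold changes ran from -0.21 for Dhcr7 to 0.43 for Abca1.

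The width of the estimates shows what size of change was still possible. The 95% interval of the fold change, taken for each gene on its own, lay wholly inside a 1.5-fold change in either direction for 29 of the 30 genes, the exception being Abca1. It lay inside a 1.25-fold change for 26 of the 30, without Abca1, Nr1h3, Cyp51 and Dhcr7. Over all genes tested the shares were 81.9% and 61.5%. For the 17 synthesis enzymes, no interval reached beyond -0.37 or above 0.22 on the log2 scale.

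**Figure D1:**
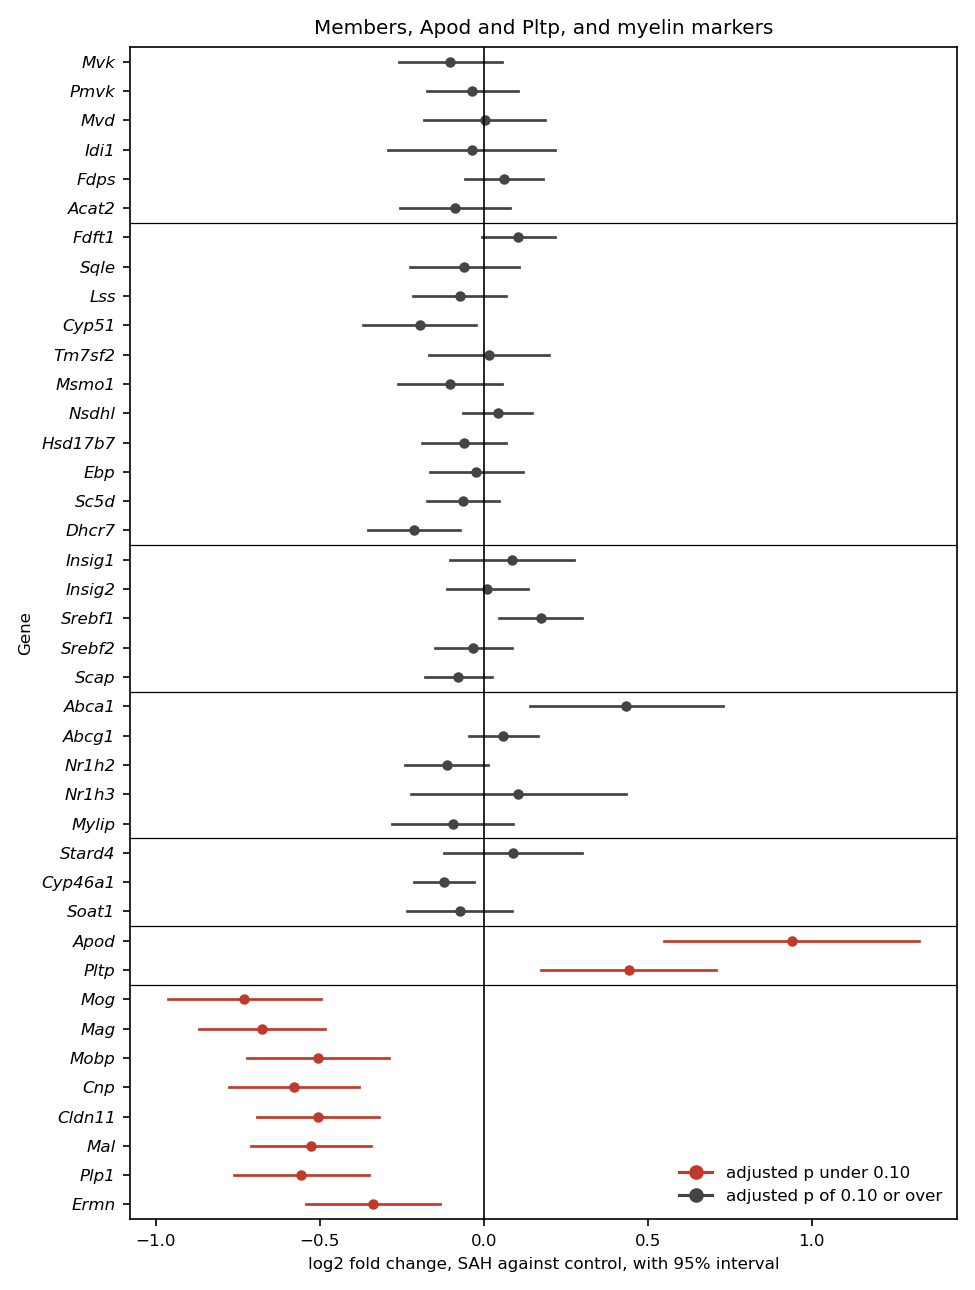
Log2 fold change (x axis) of SAH (n = 4) against control (n = 6) for the 30 tested genes by role, for Apod and Pltp, and for 8 myelin markers (y axis); points are estimates, bars 95% intervals, and red marks an adjusted p under 0.10. The 30 genes lie between -0.21 and 0.43 and none is red, while the 8 myelin markers lie between -0.73 and -0.34.

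The early steps, from acetyl-CoA to farnesyl diphosphate, were measured through 6 enzymes, of which 0 were called. Mvk (mevalonate kinase) had 17.0 ± 1.28 CPM in SAH (SD, n = 4) and 18.3 ± 1.36 in control (SD, n = 6), and its log2 fold change of -0.10 was -0.048 without SAH mouse 3. Pmvk, the next kinase, ran from 28.0 to 32.3 CPM in SAH and from 28.3 to 34.1 CPM in control. Mvd, the decarboxylase that yields the isoprene unit, had 19.2 ± 2.85 CPM in SAH and 19.2 ± 0.897 in control. For these 3 genes the SAH and control mice overlapped. Idi1, which isomerises that unit, had 6.67 ± 1.17 CPM in SAH and 6.86 ± 0.682 in control. Fdps, which joins the units into farnesyl diphosphate, had 34.2 ± 2.21 and 32.8 ± 1.59 CPM. Acat2, the thiolase that starts the pathway, had 21.3 ± 2.71 and 22.7 ± 1.37 CPM. The log2 fold changes of the 6 ran from -0.10 (Mvk) to 0.062 (Fdps), and in 5 of them, all but Fdps, the lowest of the 10 mice was SAH mouse 3. Without that mouse the log2 fold change of Fdps was 0.10 (adjusted p = 0.414 from edgeR).

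The steps from farnesyl diphosphate to cholesterol were measured through 11 enzymes. Again 0 were called, and 8 of the 11 estimates were below 0. Dhcr7, the reductase of a last step, had the lowest estimate. It had 37.6, 38.7, 31.6 and 34.5 CPM in SAH mice 1 to 4, with 40.3, 36.7 and 42.1 in Sham and 42.4, 43.8 and 42.3 in Naive mice. All SAH mice lay under all Naive mice, whereas Sham mouse 6 lay within the SAH range. SAH and Naive groups did not overlap, in either direction, for 13.8% of all genes. The log2 fold change against control was -0.21 (standard error, SE, 0.065; adjusted p = 0.113 from edgeR). It was past the threshold in DESeq2 (-0.21, adjusted p = 0.0614) and in edgeR without SAH mouse 1 (-0.24, adjusted p = 0.0979), without SAH mouse 2 (-0.25, adjusted p = 0.0628) or without Sham mouse 6 (-0.24, adjusted p = 0.0737). Over all 10 mice left out in turn the estimate stayed between -0.25 and -0.16, with adjusted p-values from 0.0628 to 0.243.

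Cyp51, which removes a methyl group from lanosterol, had 79.5, 82.9, 61.7 and 78.5 CPM in the SAH mice. Control mice ran from 76.4 over a median of 89.5 to 94.3 CPM. The groups overlapped, and SAH mouse 3 was the one far below. The log2 fold change was -0.20 (SE 0.080, adjusted p = 0.230 from edgeR), and without SAH mouse 3 it was -0.11 (adjusted p = 0.482).

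Msmo1, which oxidises methyl groups of the sterol ring, had 100.4, 96.3, 73.2 and 87.5 CPM in the SAH mice, against 89.3 to 102.1 in control (median 96.0). Sqle, squalene epoxidase and a tightly regulated step, had 73.0, 71.2, 53.6 and 67.3 CPM, against 62.5 to 75.6 in control (median 69.7). In both genes SAH mice 1 and 2 lay within the control range and SAH mouse 3 lay below it, and for Msmo1 SAH mouse 4 did too. Their log2 fold changes were -0.10 for Msmo1 and -0.060 for Sqle, with adjusted p-values from edgeR of 0.512 and 0.726, and without SAH mouse 3 they were -0.016 and 0.030. Fdft1, squalene synthase, had the highest estimate of the 11 at 0.11 (84.1 ± 5.04 CPM in SAH and 78.2 ± 4.29 in control, adjusted p = 0.322 from edgeR).

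The remaining enzymes act on the sterol ring and none had an unadjusted p under 0.05. Lss (lanosterol synthase) had 39.2 ± 4.03 CPM in SAH and 41.2 ± 1.98 in control, and here SAH mouse 4 was lowest at 33.6 while SAH mouse 3 had 43.1. Sc5d, a sterol desaturase, had 59.5 ± 4.28 and 62.2 ± 2.49 CPM. Hsd17b7, Ebp, Nsdhl and Tm7sf2, which reduce, isomerise or strip the sterol ring, lay between -0.060 and 0.042 on the log2 scale of fold change.

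SREBP regulation was covered by 5 genes, of which 0 were called in edgeR. Srebf1, which encodes SREBP-1 and is itself a target of LXR, had 54.2, 50.9, 55.9 and 55.4 CPM in the SAH mice. Sham mice had 45.0, 53.3 and 51.0 CPM and Naive mice 47.8, 43.5 and 47.0. All SAH mice were above every Naive mouse, beside 13.8% of all genes whose SAH and Naive groups did not overlap in either direction. Sham mice 6 and 7 reached into the SAH range. The log2 fold change against control was 0.17 (SE 0.058, adjusted p = 0.146 from edgeR). It passed the threshold in DESeq2 (0.18, adjusted p = 0.0946) and in edgeR without Sham mouse 6 (0.21, adjusted p = 0.0875).

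Srebf2, which encodes the SREBP-2 factor of the synthesis genes, had 228.1, 219.8, 183.0 and 211.5 CPM in the SAH mice and 208.1 to 230.3 CPM in control. Its log2 fold change was -0.031 and its 95% interval ran from -0.15 to 0.086. Insig1, a retention protein and target of SREBP-2, had 62.7, 61.7, 76.9 and 53.1 CPM in the SAH mice and 53.8 to 65.9 in control. The highest Insig1 and the lowest Srebf2, Insig2, Sqle, Cyp51 and Msmo1 values were all in SAH mouse 3, which was lowest in 26.3% of all genes. Insig2 had 47.2 ± 3.99 CPM in SAH and 46.9 ± 2.02 in control, and Scap 96.1 ± 2.95 and 101.5 ± 6.04, with log2 fold changes of 0.012 and -0.078. Without SAH mouse 3 the estimates of Srebf2 and Insig1 were 0.032 and -0.015.

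Efflux and LXR genes held the largest estimate. Abca1, which loads cholesterol onto lipoprotein particles, had 59.3, 55.8, 106.8 and 68.0 CPM in the SAH mice. Sham mice had 54.3, 52.5 and 55.0 CPM and Naive mice 52.5, 53.5 and 52.9. All 4 SAH mice lay above all 6 control mice, and SAH mouse 3 was far above the rest. It was the only one of the 30 genes whose groups did not overlap, beside 5.2% of all genes. The log2 fold change was 0.43 (SE 0.14, adjusted p = 0.121 from edgeR), with a 95% interval from 0.14 to 0.73.

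The spread among SAH mice (72.4 ± 23.4 CPM, against 53.5 ± 0.998 in control) was wide, and whether Abca1 passed the threshold depended on which mice were in the fit. Without SAH mouse 3 the estimate fell to 0.19 and the adjusted p to 0.0866. Without SAH mouse 1 the estimate was 0.52 (adjusted p = 0.0687), and without SAH mouse 2 it was 0.54 (adjusted p = 0.0400, all from edgeR). With the other 7 mice left out one by one, and in DESeq2, the gene was not called.

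Abcg1, the pump that works with Abca1, had 75.0, 77.5, 88.1 and 83.3 CPM in the SAH mice and 74.5 to 81.9 in control. Its highest mice were thus SAH mice 3 and 4, as for Abca1, but the groups overlapped (log2 fold change 0.060, adjusted p = 0.559 from edgeR). Without SAH mouse 3 the log2 fold change of Abcg1 was 0.020. The receptors did not pass the test. Nr1h2 (LXR beta) had 38.1 ± 3.63 CPM in SAH and 41.3 ± 1.32 in control, and Nr1h3 (LXR alpha) 2.61 ± 0.551 and 2.44 ± 0.273. Mylip, an LXR-induced ligase that sends lipoprotein receptors for degradation, had 24.5 ± 3.67 and 26.2 ± 1.68 CPM.

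Cyp46a1, the neuronal enzyme of cholesterol turnover, had 129.8, 143.1, 134.4 and 126.3 CPM in the SAH mice. Control mice ran from 137.8 over a median of 144.6 to 152.2 CPM. SAH mice 1, 3 and 4 lay under every control mouse, and SAH mouse 2 lay among them. The log2 fold change was -0.12 (SE 0.043, adjusted p = 0.162 from edgeR), and without SAH mouse 2 it was -0.16 (adjusted p = 0.0610). Soat1, which esterifies cholesterol for storage, had 22.4 ± 2.93 CPM in SAH and 23.6 ± 0.885 in control. Stard4, a sterol carrier, had 16.2 ± 2.61 and 15.3 ± 1.12 CPM. SAH mouse 3 was lowest in both, and without it the log2 fold change of Stard4 went from 0.089 to 0.20 (adjusted p = 0.180 from edgeR) and that of Soat1 from -0.073 to -0.0048.

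**Figure D2:**
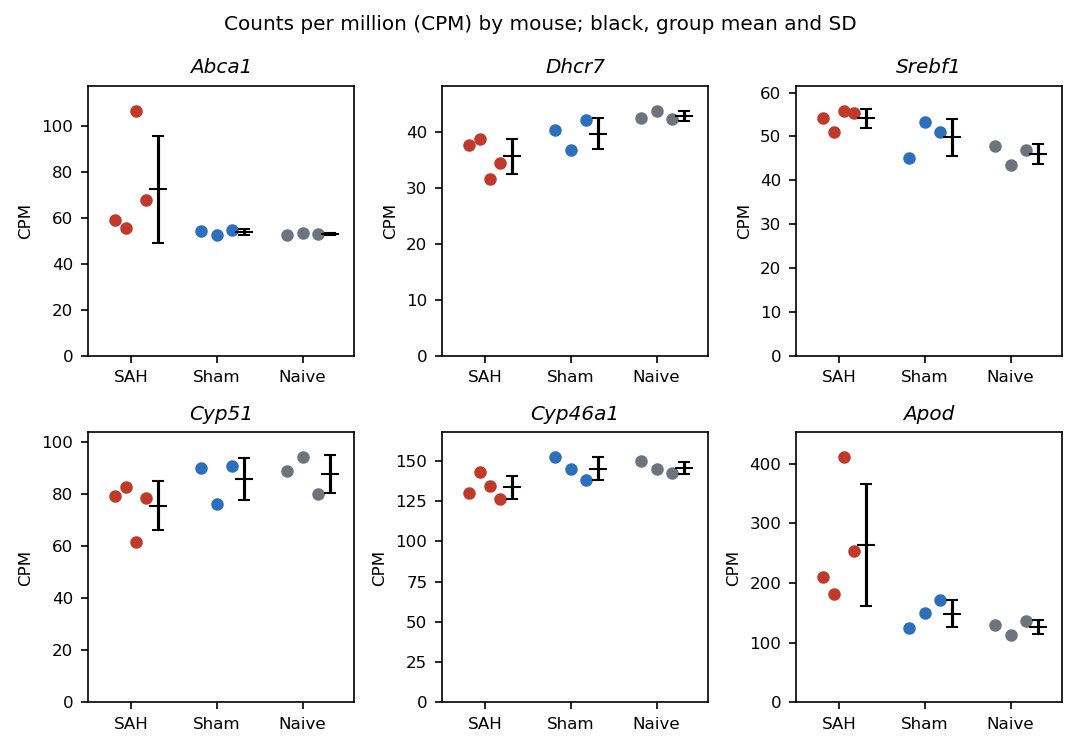
CPM (y axis, from 0) of 6 genes in each SAH, Sham and Naive mouse (x axis); each point is a mouse, and black marks show the group mean with its SD. Abca1 and Apod of all 4 SAH mice lie above all control mice, while the groups of the other 4 genes overlap.

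Against Sham mice alone, in the fit of 3 groups, 0 of the 30 genes were called (0.72% of all genes), and against Naive mice 0 of the 30 (2.99% of all genes). Between Sham and Naive mice 0 of the 30 were called either (0.00661% of all genes). At an unadjusted p under 0.05 there were 2 of 30 against Sham (9.69% of all genes), 5 against Naive (14.8%) and 0 between Sham and Naive (2.02%). DESeq2 called 0 against Sham (2.0% of all genes), 2 against Naive (4.92%) and 0 between Sham and Naive (0.0132%), the 2 being Dhcr7 and Srebf1. SAH mice are shared by the first 2 of these comparisons. For Dhcr7 the log2 fold change was -0.16 against Sham and -0.27 against Naive, and for Srebf1 0.12 and 0.23. The Sham and Naive mice themselves differed by -0.11 for Dhcr7 and 0.11 for Srebf1, less than could be called (adjusted p = 0.9998 for both from edgeR). For Abca1 the corresponding values were 0.42 against Sham, 0.45 against Naive and 0.026 between Sham and Naive.

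The mice were next compared one by one. SAH mouse 3 had the lowest CPM of all 10 mice in 11 of the 17 enzymes (64.7%), compared with 26.3% of all genes tested. Averaged over the 17 enzymes, its log2 CPM minus the control mean was -0.20. SAH mice 1, 2 and 4 were at 0.031, 0.021 and -0.059, and control mice ran from -0.083 to 0.048. SAH mice 1, 2 and 4 therefore lay within the control range. The summed level of the 17 enzymes was 698.1, 695.7, 584.6 and 659.3 CPM in SAH mice 1 to 4 and between 644.8 and 713.2 CPM in control. Without SAH mouse 3 the median log2 fold change of the 17 was 0.0015, against -0.060 with it.

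The same mouse held the highest Abca1, Abcg1, Insig1 and Srebf1 values and the lowest Srebf2, Stard4, Soat1, Nr1h2 and Mylip values. It also had the highest Ttr, a marker of choroid plexus (1110.1 CPM, with 17.0 to 769.0 CPM in the other mice), and the highest Gfap, an astrocyte marker (1142.4 CPM). The mean of 5 choroid plexus markers was highest in this mouse, at 2.68 above the control mean on the log2 scale, followed by SAH mouse 4 at 2.28 and Sham mouse 7 at 2.22. The enzymes of Sham mouse 7 stood at 0.0009 above the control mean. The part of these markers in the enzyme values was not tested.

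**Figure D3:**
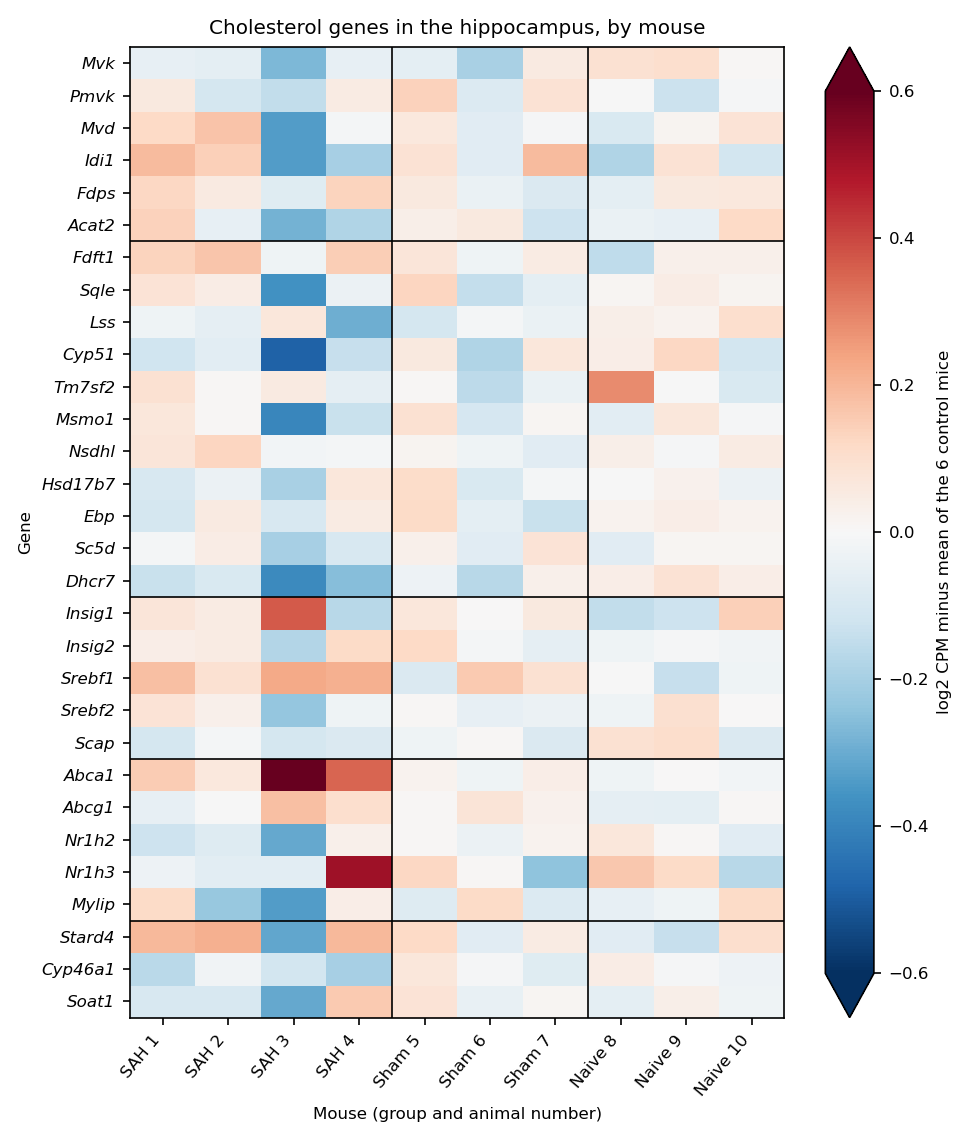
Log2 CPM of the 30 tested genes (rows, by role) in each mouse (columns), minus the mean of the 6 control mice; blue is lower and red higher, and colours end at 0.6 in either direction, which Abca1 of SAH mouse 3 exceeds. The column of SAH mouse 3 is blue across most enzymes and red at Insig1, Srebf1, Abca1 and Abcg1.

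Another 43 genes of cholesterol and related lipid metabolism gave context, of which 42 were tested. Of these, 2 rose and 0 fell in SAH against control, beside 3.13% of all genes that rose. With each mouse left out in turn, 1 to 4 rose, the 4 being without SAH mouse 1, where Lbr and Scarb1 were added and 3.94% of all genes rose. Apod, which encodes apolipoprotein D, a carrier of small lipids made by glia, rose from 137.6 CPM in control to 264.3 CPM in SAH. It had 210.2, 181.7, 411.3 and 253.8 CPM in the SAH mice and 112.5 to 170.9 CPM in control. The groups did not overlap, beside 5.2% of all genes (log2 fold change 0.94, SE 0.18, adjusted p = 0.0135 from edgeR). The call held with each of the 10 mice left out in turn, at 0.65 to 1.08, and was lost with Sham mice alone in the fit (0.83, adjusted p = 0.377).

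Pltp, phospholipid transfer protein and a known LXR target, had 38.3, 44.8, 45.6 and 63.0 CPM in the SAH mice and 30.3 to 43.8 CPM in control. SAH mouse 1 lay within the control range and SAH mouse 4 was highest. The log2 fold change was 0.44 (adjusted p = 0.0811 from edgeR), and it was lost when SAH mouse 4 (0.28, adjusted p = 0.222), Sham mice 5, 6 or 7, or Naive mice 8 or 10 were left out. It was also lost with Sham mice alone (0.46, adjusted p = 0.426) or Naive mice alone as control (0.42, adjusted p = 0.330), and with the 3 groups fitted and Sham and Naive averaged (adjusted p = 0.107). Against Naive mice, 1 gene of the 42 rose (2.03% of all genes rose) and 1 fell (0.965% fell). The gene that rose was Apod, at 1.06 (adjusted p = 0.0338 from edgeR), whose call was lost without Naive mouse 8 (1.09, adjusted p = 0.155) or Naive mouse 9 (0.99, adjusted p = 0.187). The gene that fell was Abca2, a transporter of myelin-forming cells, at -0.19 (adjusted p = 0.0608 from edgeR), a gene singled out after its values were seen. Its call was lost without SAH mice 1 or 4 or Naive mice 8 or 9 and with only the mice compared in the fit (-0.19, adjusted p = 0.143), and against control it was at -0.13 (adjusted p = 0.154). Between Sham and Naive mice Abca2 was at -0.12 (unadjusted p = 0.0304, adjusted p = 0.9998 from edgeR). Against Sham mice 0 of the 42 were called, with Apod at 0.83 (adjusted p = 0.177) and Abca2 at -0.073 (adjusted p = 0.649). Apod passed the threshold against Sham with no filter (0.82, adjusted p = 0.0970), without SAH mouse 2 (0.97, adjusted p = 0.0611) and without SAH mouse 3 (0.53, adjusted p = 0.0627).

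None of the other groups of this list held a call in SAH against control. The 7 genes of SREBP cleavage and degradation had log2 fold changes from -0.0095 to 0.12. The 8 fatty acid genes under SREBP-1 or LXR ran from -0.19 to 0.063, with a median of -0.066. The 8 genes of acetyl-CoA supply and auxiliary sterol steps ran from -0.069 to 0.22, and the 5 of lysosomal release and sterol transfer from -0.12 to 0.090. The 6 tested genes of nuclear receptor partners and oxysterol enzymes ran from -0.12 to 1.14. The upper end was Ch25h, which makes an oxysterol and was singled out after its values were seen. It had 14, 19, 32 and 20 counts in the SAH mice and 3 to 20 in control, so its estimate was the highest of the 42 and among the least precise (1.14, 95% interval from 0.19 to 2.09, adjusted p = 0.207 from edgeR).

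Since myelin holds most brain cholesterol, the enzymes were set beside markers of myelinating oligodendrocytes. All 8 markers fell in SAH against control (1.54% of all genes fell), with log2 fold changes from -0.73 (Mog, a myelin surface protein, adjusted p = 0.00375 from edgeR) to -0.34 (Ermn, adjusted p = 0.0811). Mog had 63.9, 66.1, 49.5 and 46.1 CPM in the SAH mice and 82.5 to 111.3 CPM in control. The summed level of the 8 was 2654.6 to 3395.3 CPM in SAH and 3863.3 to 5233.4 CPM in control, without overlap. On the same measure the 17 enzymes overlapped, with 659.4 ± 52.9 CPM in SAH (SD, n = 4) and 687.1 ± 24.4 CPM in control (SD, n = 6), and with 684.3 ± 21.7 CPM in SAH without mouse 3 (SD, n = 3). As mean log2 CPM minus the control mean, the myelin markers of SAH mice 1 to 4 were at -0.42, -0.48, -0.59 and -0.72, and the enzymes at 0.031, 0.021, -0.20 and -0.059. SAH mice 3 and 4 were thus the lowest of the SAH mice in both, but in opposite order. The enzymes of SAH mouse 4 lay within the control range. The difference between the enzyme and marker changes was not tested. In whole tissue, fewer cells of a type and less RNA per cell cannot be told apart. The call of Ermn was lost with 8 of the 10 mice left out in turn, and the other 7 markers kept theirs. In the fit of 3 groups, 6 of the 8 fell against Sham (29 of all 15134 genes fell) and 7 of 8 against Naive (146 of 15134). With SAH and Sham mice alone in the fit, 0 of the 8 passed the threshold, and all 8 estimates were below 0 there as well.

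**Figure D4:**
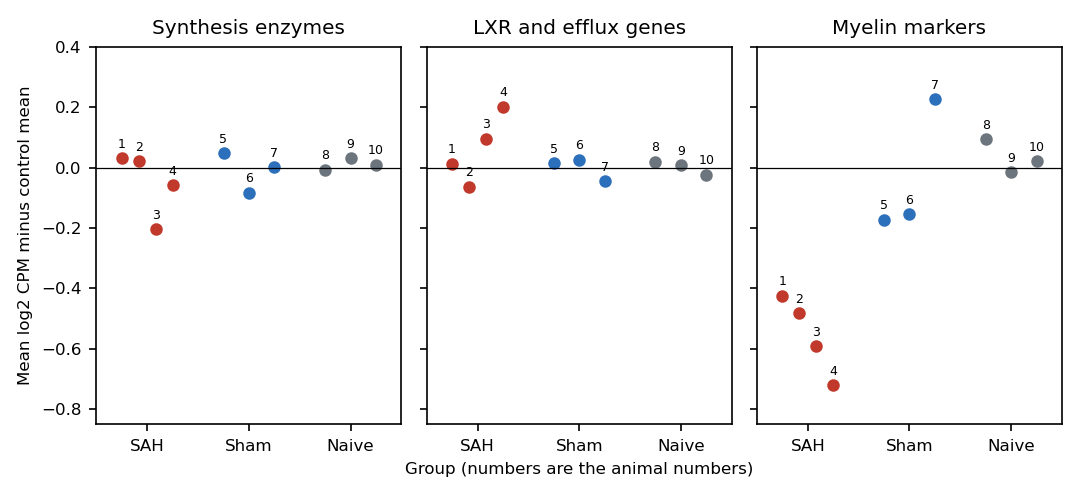
Mean log2 CPM minus the control mean (y axis) of 17 synthesis enzymes, 5 LXR and efflux genes and 8 myelin markers in each mouse, numbered as labelled, by group (x axis). Myelin markers of all 4 SAH mice lie at -0.42 or lower and below all control mice, while the enzymes of SAH mice 1, 2 and 4 lie within the control range and those of mouse 3 at -0.20.

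Markers of other cells moved as well, beside 3.13% of all genes that rose and 1.54% that fell. Gfap rose among 6 astrocyte markers (log2 fold change 1.00). The others, Aqp4, Gja1, Aldh1l1, Slc1a2 and Slc1a3, were at 0.21, 0.023, 0.26, -0.035 and 0.023 and were not called. Csf1r, C1qa and Cd68 rose among 6 markers of microglia and macrophages (0.29, 0.52 and 0.30). The other members of that list, Cx3cr1, P2ry12 and Tmem119, were at -0.062, -0.046 and 0.084 and were not called. Pecam1 and Flt1 rose among 4 endothelial markers (0.70 and 0.79), and Col1a1, Col1a2, Lum and Slc6a13 among 5 of meningeal fibroblasts (0.90 to 1.21). The others, Cldn5, Slco1a4 and the fibroblast marker Dcn, were at 0.42, 0.31 and 0.12 and were not called. SAH mouse 3 lay within the control range for Col1a1, Lum and Slc6a13. SAH mouse 1 did so for Pecam1, and SAH mice 1 and 2 for Flt1. Of 6 general and 4 hippocampal neuron markers, 0 were called. Of 5 choroid plexus markers 0 were called too, but all 5 estimates were above 0 (0.58 to 1.64) and 2 had an unadjusted p under 0.05 in edgeR (17.0% of all genes did). Against Naive mice all 5 had an unadjusted p under 0.05 (14.8% of all genes did) and 2 rose (2.03% of all genes rose). These were Ttr (4.30, adjusted p = 0.0874) and Kcnj13 (3.64, adjusted p = 0.0363, both from edgeR). For Sham against Naive mice all 5 estimates were above 0 too, and 0 were called (Ttr 3.54, Kcnj13 2.99). Of the 5, 3 had an unadjusted p under 0.05 in edgeR (2.02% of all genes did). The Sham mice were unlike each other, with Ttr at 173.0, 24.8 and 740.2 CPM in Sham mice 5, 6 and 7. Naive mice had 17.0 to 36.4 CPM, so Sham mouse 6 lay within their range. Between SAH and Sham mice 0 of the 5 had an unadjusted p under 0.05, beside 9.69% of all genes (Ttr 0.76, Kcnj13 0.64). With each mouse left out in turn, Gfap, C1qa, Col1a1, Col1a2 and Lum kept their calls. Those of Csf1r and Pecam1 were lost without SAH mouse 4, and those of Cd68, Flt1 and Slc6a13 were lost in 8, 7 and 8 of the 10 cases. With Sham mice alone as control, the calls of all 10 of these markers were lost, those of Cd68, Pecam1, Flt1 and Col1a1 were lost with Naive mice alone, and those of Flt1 and Slc6a13 were lost in DESeq2 (adjusted p = 0.122 and 0.107). The summed level of the 6 neuron markers was 11806.4 to 13122.3 CPM in SAH and 11505.7 to 12521.6 CPM in control. The part of these cell types in the values of Abca1, Apod and Pltp was not tested.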

How the data were processed

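RNA-seq libraries (ribosomal RNA depleted, strand-specific, read pairs) of 10 mouse hippocampi were used. The authors aligned reads to mm9 with STAR (version not given in the sources used here), and per the file headers featureCounts 1.6.2 counted pairs on exons by gene name, uniquely aligned and reverse-stranded. The deposited values are whole counts without normalization, 19743388 to 27254655 per mouse. Nothing upstream of the counts was repeated. CPM, log2 fold changes, intervals (95%, counting and mouse spread) and p-values come from edgeR 4.0.16 in R 4.3.3 (TMM, filterByExpr with minimum count 10 and minimum total 15, quasi-likelihood test, Benjamini-Hochberg over all genes tested, threshold 0.10). The standard error is the log2 fold change divided by the square root of F. The fit was tested on simulated data. SAH was compared with pooled control in a fit of 2 groups, and pairwise in a fit of 3. DESeq2 1.42.0, which the authors used, other scalings, filters and thresholds, single controls and each mouse left out were alternatives. Mean log2 CPM used a pseudocount of 0.1. All 31 genes, and list genes past the threshold in SAH against control, were named. Members, lists and tests were chosen with earlier results of these data known. Python 3.11.15, pandas 2.3.3, numpy 2.4.6 and matplotlib 3.10.9 were used, and promoter sequence came from RefSeq (GRCm38.p6) without use of its coordinates on mm9.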

Additional observations from a re-analysis of the deposited data

Results flagged for a closer look

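In 64 groups of mice (32 genes, each in SAH and in control), 6 held a mouse whose gap to its nearest neighbour was above the critical share of the group's range, and chance gives about 1 in 20. In SAH mice, these were Mvk at 15.1 CPM and Stard4 at 12.3 CPM, both the lowest value and both in SAH mouse 3, and Nr1h3 at 3.44 CPM, the highest value, in SAH mouse 4. In control mice, they were Tm7sf2 at 14.5 CPM in Naive mouse 8, Insig2 at 50.9 CPM in Sham mouse 5 and Srebf2 at 230.3 CPM in Naive mouse 9, each the highest. Abca1 of SAH mouse 3, at 106.8 CPM, did not reach the critical share.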

How the results depend on the processing

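No paired analysis was possible because each mouse carries an animal number of its own. In SAH against control the 0 called genes of 30 became 2 with DESeq2 and 0 to 3 with each mouse left out; against Naive they became 2 with DESeq2 and 0 to 2 with each mouse left out. Against Sham and between Sham and Naive they were 0 under every alternative run. The median log2 fold change of the 30 lay between -0.066 (without SAH mouse 1) and 0.0036 (without SAH mouse 3), and between -0.048 and -0.030 under the other alternatives. Estimates near 0 changed sign. With Naive mice alone as control these were Pmvk (0.018), Idi1 (0.039) and Tm7sf2 (-0.049), and with Sham mice alone Ebp (0.0017) and Insig2 (-0.0076). With each mouse left out, Pmvk ran from -0.066 to 0.0015, Mvd from -0.062 to 0.098, Idi1 from -0.11 to 0.050, Sqle from -0.11 to 0.030, Tm7sf2 from -0.016 to 0.080, Ebp from -0.050 to 0.0057, Insig1 from -0.015 to 0.16, Insig2 from -0.025 to 0.070, Srebf2 from -0.072 to 0.032 and Nr1h3 from -0.059 to 0.16.

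Over all genes, the 701 calls in SAH against control became 369 at an adjusted p under 0.05, 282 with Naive and 12 with Sham mice alone as control, and 308 (without SAH mouse 4) to 1093 (without SAH mouse 2) with each mouse left out. Against Sham, 109 calls became 302 with DESeq2, 182 with no filter, 49 under 0.05, 12 with only the mice compared, and 6 to 215 with each mouse left out. Against Naive, 453 became 744, 260 under 0.05, 282 with only the mice compared, and 109 to 683. Between Sham and Naive, 1 became 2 with DESeq2, 3 with only the mice compared, and 0 to 1. Counts limit Nr1h3 most (46 to 86 per mouse), and its interval is the widest of the 30.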
